A study of Mus musculus with 5 samples.

Results

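The genes examined here were 10 ligands and receptors of blood and lymphatic vessel growth, namely *Vegfa*, *Vegfc*, *Flt1*, *Kdr*, *Flt4*, *Angpt1*, *Angpt2*, *Tek*, *Nrp1* and *Nrp2*. They were taken by gene symbol from the 28666 genes listed in the table of read counts, each symbol had 1 row, and all 10 passed the filter on low counts. RNA sequencing was performed on whole uteri of pseudopregnant ICR females aged 6 to 8 weeks, 3.5 days after they were caged with males made sterile by ligation (the time in the labels, while the study's text names a slightly earlier one). The females of the aged-SP group were exposed to seminal plasma (SP) of aged C57BL/6 males (2 libraries, replicates 1 and 4), and those of the young-SP group to SP of young C57BL/6 males (3 libraries, replicates 1, 2 and 4). Without sperm, the females of both groups carried no embryos of these matings, and no unexposed group was analysed here. The comparison asks how these uterine genes differed with the age of the male.

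VEGF-A drives growth and leakiness of blood vessels mainly through VEGFR2, the product of *Kdr*, while VEGFR1 (*Flt1*) binds the same ligand tightly and limits its supply. VEGF-C acts on lymphatic vessels through VEGFR3 (*Flt4*), and the neuropilins (*Nrp1*, *Nrp2*) are co-receptors that also bind class 3 semaphorins. ANGPT1, made by cells around vessels, activates the endothelial receptor TIE2 (*Tek*) and keeps vessels quiet and tight, and ANGPT2, made by endothelium, competes with it. In the uterus these systems act in the cyclic growth of endometrial vessels and in the rise of vascular permeability around implantation.

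Total counts lay between 15071914 and 16728601 per library, and the members had between 76 and 1926 counts each. In a principal component analysis of the 500 most variable genes, young-SP replicate 1 stood apart from young-SP replicates 2 and 4. On the first component, with 66.2% of the variance, it lay at -9.43, the other young-SP libraries at 41.9 and 36.6, and the aged-SP libraries at -43.7 and -25.5. This library had the lowest value of 6 of the 10 members (*Vegfc*, *Flt1*, *Kdr*, *Flt4*, *Tek* and *Nrp2*) and of 10 of 19 endothelial markers, so values are also given without it. The labels do not say that each library came from a separate female, so the p-values measure only the spread between these libraries. In whole tissue, fewer cells of a type and less RNA per cell cannot be told apart.

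*Angpt1* and *Nrp1* were lower in the aged-SP group, and *Angpt2* and *Flt4* were higher, with groups that did not overlap. *Angpt1* was at 0.476 of its young-SP level, and the other 3 genes differed by less than that. None of the 10 members passed the threshold of edgeR's quasi-likelihood test, a Benjamini-Hochberg adjusted p under 0.05 with an absolute log2 fold change over 1, which called 0.147% of all tested genes. At an unadjusted p under 0.05 there were 4 of 10 members, 2 higher and 2 lower, against 19.0% of all tested genes (9.62% higher and 9.36% lower). The CPM of the groups (counts scaled to a common library size after TMM) did not overlap for 5 of 10 members, the fifth being *Vegfa*, against 38.8% of all tested genes. The median log2 fold change of the members was -0.01, and that of all tested genes was 0.0072. Leaving out young-SP replicate 1 put the median of the members at -0.20, and leaving out young-SP replicate 2 put it at 0.15. With DESeq2's Wald test, *Angpt1* alone passed both thresholds, against 3.60% of all tested genes. *Angpt1* and *Nrp1* had an adjusted p under 0.05 with DESeq2, against 7.58% of all tested genes.

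**Figure D1:**
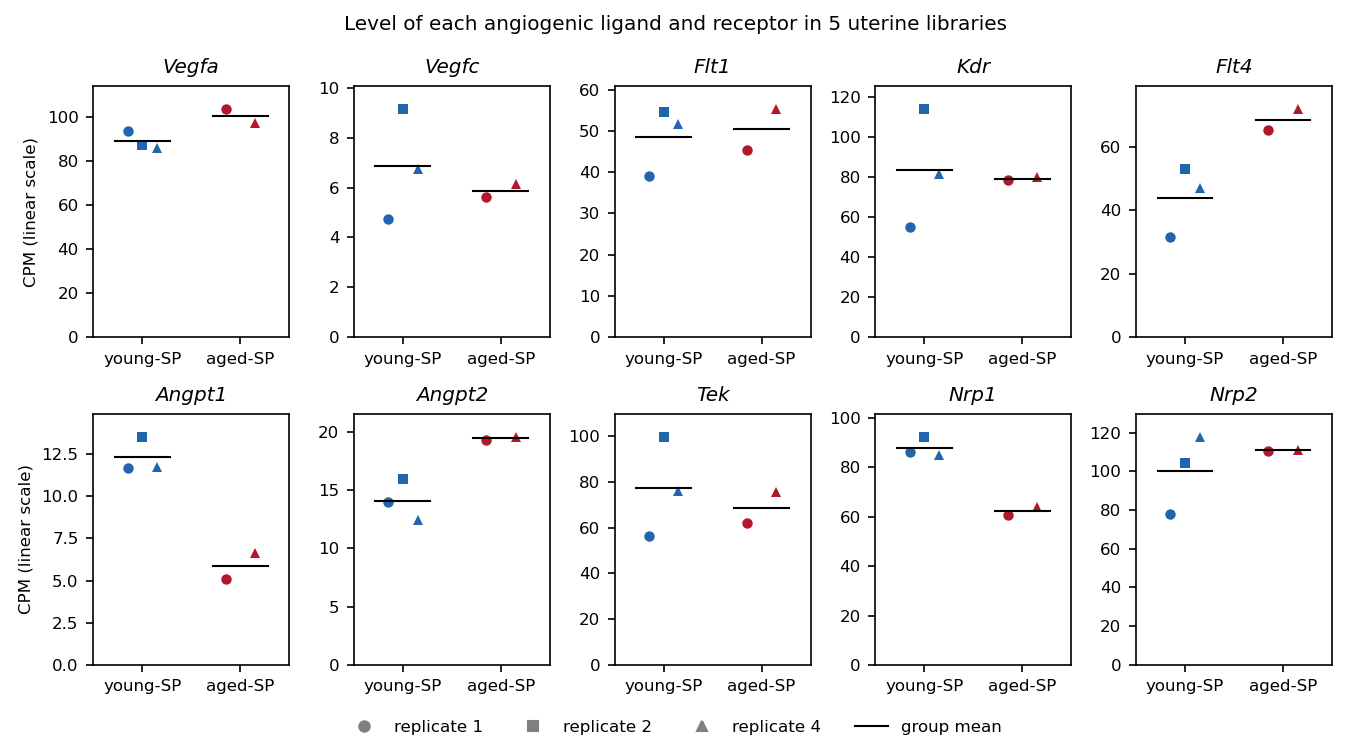
CPM of each of the 10 genes in each library on a linear axis that starts at 0, with 2 aged-SP and 3 young-SP libraries, where short lines are group means. Both aged-SP points lie below the 3 young-SP points for *Angpt1* and *Nrp1* and above them for *Angpt2*, *Flt4* and *Vegfa*, and young-SP replicate 1 is the lowest point for 6 genes.

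*Vegfa*, on the minus strand of chr17:46016993-46032369 (GRCm38), was the member with the highest level per length. Its FPKM values (fragments per kilobase of gene, scaled to the library total) were 24.0 and 22.6 in the aged-SP group and 21.7, 20.9 and 20.0 in the young-SP group, so both aged-SP libraries lay above all young-SP libraries. Its mean CPM was 101 ± 4.69 (SD, n = 2) with aged SP and 89.3 ± 4.06 (SD, n = 3) with young SP. The log2 fold change was 0.17 ± 0.090 (SE), with a 95% interval from -0.05 to 0.40 and an adjusted p of 0.363 with edgeR. *Vegfc* (chr8:54077606-54187096, plus strand), the ligand of lymphatic growth, had CPM values of 5.62 and 6.14 in the aged-SP group and 4.75, 9.16 and 6.74 in the young-SP group. Both aged-SP values fell between the lowest and the highest young-SP values. The log2 fold change of *Vegfc* was -0.23 ± 0.31 (SE), with a 95% interval from -1.01 to 0.55.

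*Angpt1* (chr15:42424723-42676977, minus strand) had the lowest level per length of the 10 genes. Its CPM was 5.08 and 6.65 in the aged-SP group and 11.7, 13.5 and 11.7 in the young-SP group, and its raw counts were 84 and 104 against 187, 229 and 176. Every young-SP library was above both aged-SP libraries, and young-SP replicate 1 lay with the other young-SP libraries for this gene. The log2 fold change was -1.07 ± 0.20 (SE), with a 95% interval from -1.57 to -0.57, an unadjusted p of 0.00218 and an adjusted p of 0.0904 with edgeR. DESeq2 gave -1.08 with an adjusted p of 0.00081, and without young-SP replicate 1 it gave -1.12 with an adjusted p of 0.0107. Exons of *Angpt1* overlap those of *Gm17473* on the other strand over 14.2% of their length, and the kit does not mark strand, so these reads cannot be assigned to one strand. *Gm17473* itself was listed with 0 or 1 counts in each library.

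*Angpt2* (chr8:18690263-18741562, minus strand) had CPM values of 19.3 and 19.6 in the aged-SP group and 13.9, 15.9 and 12.4 in the young-SP group. The 2 aged-SP libraries were nearly equal and both above the highest young-SP library. The log2 fold change was 0.46 ± 0.15 (SE), with a 95% interval from 0.08 to 0.85 and an adjusted p of 0.207 with edgeR. Its unadjusted p with edgeR was 0.0260 with all libraries. When young-SP replicates 1, 2 and 4 were dropped in turn, it was 0.0516, 0.0242 and 0.0742. An unadjusted p under 0.05 therefore depended on the libraries kept. The log2 fold change in these fits was 0.44, 0.56 and 0.37. Dropping aged-SP replicate 1 put the log2 fold change at 0.47, and dropping aged-SP replicate 4 put it at 0.45. The FPKM ratio of *Angpt2* to *Angpt1*, ligands of the same receptor, was 5.31 and 4.13 in the aged-SP libraries and 1.68, 1.65 and 1.49 in the young-SP libraries. The ratio was thus above 1 in every library, and the mean ratio was 2.92-fold higher in the aged-SP group, a difference of 1.54 on the log2 scale. The exact permutation p was 0.2 (two-sided, n = 2 and 3), which is the smallest that this design allows, and 0.333 after adjustment over the 5 ratios tested. Each gene alone already separated the groups, in opposite directions. The ratio therefore had to separate them, and its p could only be 0.2, so it adds no separate evidence.

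**Figure D2:**
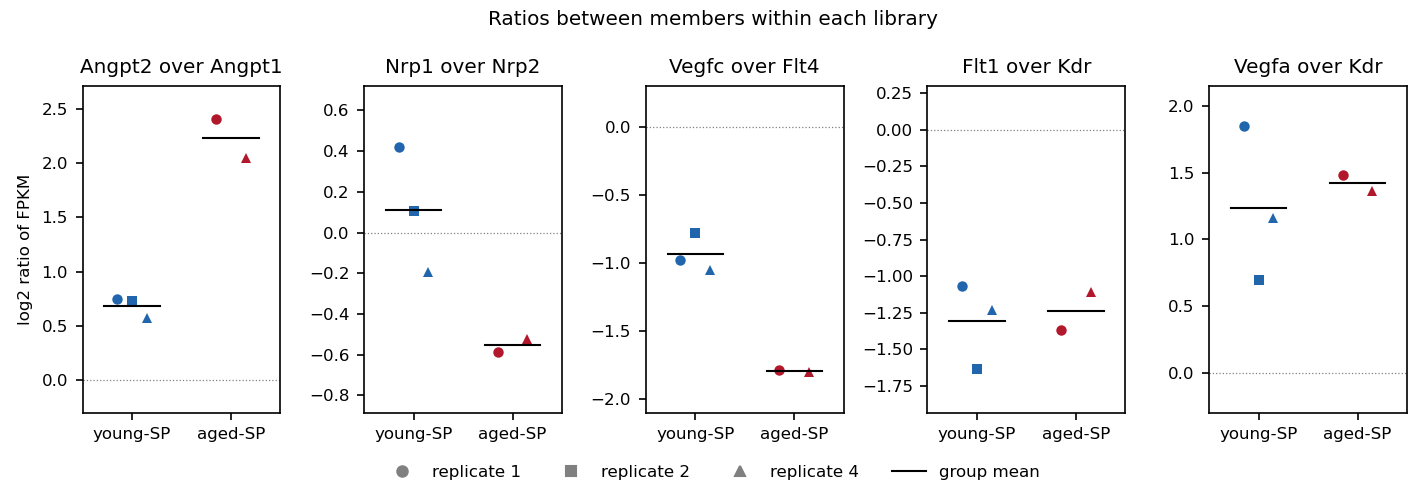
FPKM ratios within each library on a log2 axis, for *Angpt2* over *Angpt1*, *Flt1* over *Kdr*, *Nrp1* over *Nrp2*, *Vegfa* over *Kdr* and *Vegfc* over *Flt4*, where points are libraries and short lines are group means. The groups do not overlap for *Angpt2* over *Angpt1* (higher in the aged-SP group) and for *Nrp1* over *Nrp2* and *Vegfc* over *Flt4* (lower), and they overlap for both ratios to *Kdr*.

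The kinase receptors of VEGF-A and of the angiopoietins, *Kdr*, *Flt1* and *Tek*, did not separate the groups. *Kdr* (chr5:75932827-75978458, minus strand), the main signaling receptor of VEGF-A, had CPM values of 78.4 and 79.8 in the aged-SP group and 54.8, 114 and 81.3 in the young-SP group. *Tek* (chr4:94739289-94874976, plus strand) had 61.9 and 75.7 in the aged-SP group and 56.2, 99.8 and 76.2 in the young-SP group. *Flt1* (chr5:147561604-147726011, minus strand) had 45.4 and 55.4 in the aged-SP group and 39.0, 54.7 and 51.8 in the young-SP group. For all 3 receptors young-SP replicate 1 was the lowest library, and for *Kdr* and *Tek* young-SP replicate 2 was the highest. The log2 fold changes were -0.07 (95% interval from -0.82 to 0.67) for *Kdr*, -0.17 (from -0.80 to 0.46) for *Tek* and 0.05 (from -0.39 to 0.50) for *Flt1*. These intervals include changes of more than 0.3 in either direction, so equal levels were not shown. The ratio of *Flt1* to *Kdr* differed by 0.07 on the log2 scale (exact permutation p = 1, n = 2 and 3), and that of *Vegfa* to *Kdr* by 0.18 (exact permutation p = 0.8).

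*Flt4* (chr11:49609263-49652739, plus strand), which in adults marks mainly lymphatic endothelium, was the one receptor tyrosine kinase of the 4 with separate groups. Its CPM was 65.2 and 72.0 in the aged-SP group and 31.5, 53.0 and 47.1 in the young-SP group. Both aged-SP libraries lay above all young-SP libraries, and young-SP replicate 1 was below the others. The log2 fold change was 0.64 ± 0.22 (SE), with a 95% interval from 0.09 to 1.20 and an adjusted p of 0.220 with edgeR. Without young-SP replicate 1 it was 0.44, with an unadjusted p of 0.0104 with edgeR. Without young-SP replicate 2 it was 0.80 (unadjusted p 0.0171), and without young-SP replicate 4 it was 0.69 (unadjusted p 0.0584). It was 0.71 without aged-SP replicate 1 and 0.57 without aged-SP replicate 4. The ratio of *Vegfc* to *Flt4* was 0.291 and 0.288 in the aged-SP libraries and 0.508, 0.582 and 0.482 in the young-SP libraries, with no overlap (exact permutation p = 0.2, the smallest possible).

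*Nrp1* (chr8:128358604-128503363, plus strand), the co-receptor of VEGFR2, had the smallest p of the members. Its CPM was 60.9 and 64.0 in the aged-SP group and 86.1, 92.5 and 85.2 in the young-SP group, and each group was narrow. The log2 fold change was -0.49 ± 0.089 (SE), with a 95% interval from -0.72 to -0.27, an unadjusted p of 0.0019 and an adjusted p of 0.0867 with edgeR. DESeq2 gave -0.50 with an adjusted p of 0.00133, and without young-SP replicate 1 edgeR gave -0.52. *Nrp2* (chr1:62703285-62818695, plus strand), the partner of VEGFR3, had 111 and 111 in the aged-SP group and 77.8, 104 and 118 in the young-SP group. Young-SP replicate 1 alone set the lower mean of *Nrp2* in its group, and the log2 fold change was 0.15 with a 95% interval from -0.31 to 0.61. The FPKM ratio of *Nrp1* to *Nrp2* was 0.666 and 0.697 in the aged-SP libraries and 1.34, 1.07 and 0.874 in the young-SP libraries. *Nrp2* was therefore above *Nrp1* in both aged-SP libraries and in 1 of 3 young-SP libraries (exact permutation p = 0.2, the smallest possible).

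Without young-SP replicate 1, 3 members (*Angpt1*, *Nrp1* and *Flt4*) had an unadjusted p under 0.05 with edgeR, against 22.7% of all tested genes, and 0 had an adjusted p under 0.05.

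**Figure D3:**
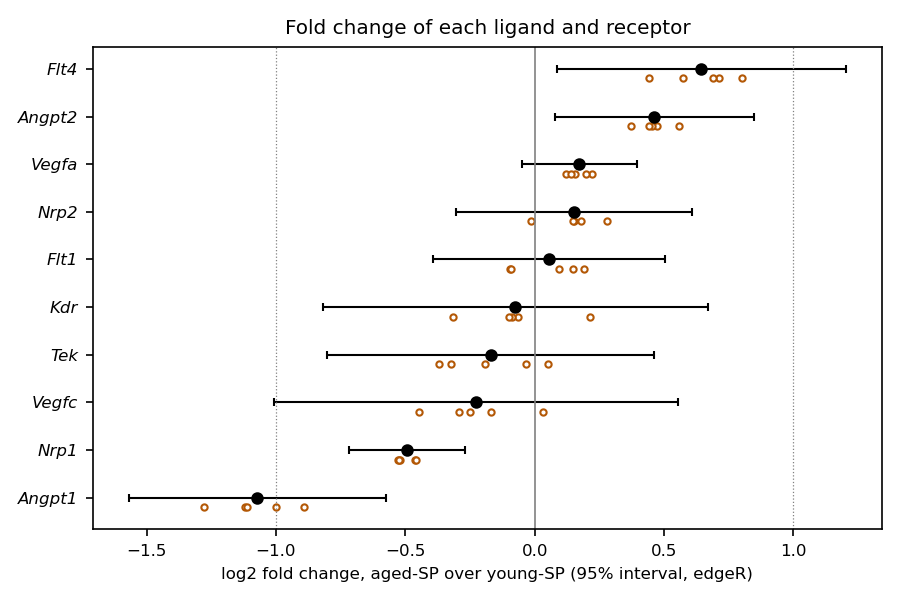
Log2 fold change of each gene, aged-SP over young-SP, by edgeR, with black points and bars for the fit of 5 libraries and its 95% interval, small open points for the fits that leave out 1 library each, and dotted lines at -1 and 1. The intervals of *Nrp1* and *Angpt1* lie below 0, those of *Angpt2* and *Flt4* lie above 0, and those of the other 6 genes cross 0.

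Promoter sequences from RefSeq (GRCm38.p6) were read for 8 of the 10 genes, as the 250 bases before each RefSeq start, shortened where an annotated exon lies in that window. The sequences of *Nrp1*, the member with the smallest p, and of *Kdr* and *Tek*, the receptors that were lowest in young-SP replicate 1 and highest in young-SP replicate 2, are shown 5′ to 3′ on the gene's strand. Capitals mark the GC box GGGCGG, the core of the site bound by SP1-type factors, and its reverse complement CCGCCC.
Nrp1 promoter: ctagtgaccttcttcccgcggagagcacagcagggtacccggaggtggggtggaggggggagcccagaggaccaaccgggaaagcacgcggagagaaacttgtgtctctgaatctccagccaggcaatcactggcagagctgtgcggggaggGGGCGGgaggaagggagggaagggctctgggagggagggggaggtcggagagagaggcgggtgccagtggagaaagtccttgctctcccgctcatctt
Kdr promoter: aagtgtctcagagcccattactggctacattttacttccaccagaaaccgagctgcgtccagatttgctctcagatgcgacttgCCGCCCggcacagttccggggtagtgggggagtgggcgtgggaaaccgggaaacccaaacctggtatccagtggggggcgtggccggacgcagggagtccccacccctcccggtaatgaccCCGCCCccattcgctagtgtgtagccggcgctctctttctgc
Tek promoter: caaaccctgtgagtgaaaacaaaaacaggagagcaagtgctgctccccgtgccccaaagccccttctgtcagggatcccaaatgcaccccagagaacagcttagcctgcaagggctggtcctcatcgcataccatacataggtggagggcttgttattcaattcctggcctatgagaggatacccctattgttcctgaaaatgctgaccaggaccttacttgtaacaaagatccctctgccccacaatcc
These are chr8:128358823-128359072 on the plus strand, chr5:75978459-75978705 on the minus strand and chr4:94739039-94739288 on the plus strand. The RefSeq start of *Nrp1* lies downstream of the gene start given in the files, so its stretch is inside the gene interval but in no annotated exon. The GC box was in the 250-base windows of 7 of the 8 genes, *Tek* being the exception and the window of *Flt4* lying wholly in exons, and in 32.7% of 32851 promoters of the same length. The ETS core CCGGAA was in 1 of the 8 (*Kdr*) and in 12.0% of all promoters, and the HIF core ACGTG was in 1 of the 8 (*Vegfa*, in a second window with 218 exon bases) and in 16.6%. These are matches of letters on both strands, and no binding was measured.

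Per length, the levels over all 5 libraries were ordered *Vegfa* (FPKM 21.9 ± 1.54, SD, n = 5), *Tek* (15.7 ± 3.80), *Kdr* (9.05 ± 2.45), *Nrp2* (8.80 ± 1.32), *Nrp1* (7.94 ± 1.52), *Flt4* (6.52 ± 1.91), *Angpt2* (4.39 ± 0.854), *Flt1* (3.65 ± 0.543), *Vegfc* (2.65 ± 0.719) and *Angpt1* (1.87 ± 0.718). The ranges of all neighbours in this order overlapped. Within libraries, *Tek* was above *Kdr*, *Flt4* above *Angpt2* and *Flt1* above *Vegfc* in 5 of 5, whereas *Kdr* was above *Nrp2* in only 1 of 5. *Nrp1* was above *Flt4* in 3 of 5, namely the young-SP libraries, and *Flt4* was above *Nrp1* in both aged-SP libraries (7.83 and 8.72 against 6.16 and 6.52 FPKM), so the pooled order of this pair holds for 1 group only. The length used by the authors joins all annotated exons of a gene, which for *Flt1* comes to 13504 bases, and a gene that uses few of its exons has a lower FPKM for it.

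Relative to the mean log2 CPM of *Pecam1* and *Cdh5*, general endothelial markers, *Kdr* differed between the groups by -0.09, *Tek* by -0.22 and *Flt1* by -0.02, with overlapping groups and exact permutation p from 0.4 to 0.8 (n = 2 and 3). *Flt4* was 1.51-fold higher relative to these markers in the aged-SP group, with no overlap (exact permutation p = 0.2, the smallest possible). *Angpt2* differed by 0.39 with overlapping groups (exact permutation p = 0.4), and against all 19 endothelial markers by 0.44 with no overlap. Among the 19 endothelial markers, 2 were higher and 3 lower at an unadjusted p under 0.05 (19.0% of all tested genes), with a median log2 fold change of 0.02, which was -0.13 without young-SP replicate 1. Their summed CPM was 1249 to 1389 in the aged-SP group and 1261 to 1742 in the young-SP group. *Pecam1* had a CPM of 208 ± 7.44 (SD, n = 2) against 173 ± 41.5 (SD, n = 3), and *Cdh5* had 132 ± 6.06 against 151 ± 48.4, so both overlapped. *Sox17*, a transcription factor of arterial endothelium that is also made in uterine epithelium, was lower (log2 fold change -0.97, adjusted p 0.0877 with edgeR), as was *Cd34* (-0.55), while *Sox7* (0.91) and *Mmrn2* (0.34) were higher.

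Markers of lymphatic endothelium lay on the same side as *Flt4*. At an unadjusted p under 0.05 with edgeR, all 6 tested genes of this list were higher with aged SP, against 9.62% of all tested genes. None of their groups overlapped in CPM, which held in this direction for 19.5% of all tested genes. Their median log2 fold change was 0.98, with a range from 0.72 to 1.39, and their summed CPM was 311 to 342 in the aged-SP group and 141 to 206 in the young-SP group. *Lyve1*, the hyaluronan receptor of lymphatic vessels and of some macrophages, had 87.8 and 92.0 CPM against 43.4, 52.8 and 53.1, a log2 fold change of 0.85 with an adjusted p of 0.0734 with edgeR and 1.39e-05 with DESeq2. *Reln* was at 1.15 (adjusted p 0.0867 with edgeR), *Pdpn* at 1.39 and *Ccl21a* at 0.92. With edgeR 0 of the 6 had an adjusted p under 0.05, and with DESeq2 there were 5 of 6, against 7.58% of all tested genes. Without young-SP replicate 1 all 6 were still higher at an unadjusted p under 0.05 (11.6% of all tested genes), with a median of 0.79. *Prox1*, the factor that sets lymphatic identity, and *Mmrn1* were named after their values were seen, with log2 fold changes of 1.04 and 0.72. Relative to the mean of *Prox1*, *Lyve1* and *Mmrn1*, *Flt4* showed a difference (aged-SP minus young-SP) of -0.23 in log2 CPM, with no overlap (exact permutation p = 0.2, the smallest possible). That difference holds for these markers only, as the whole lymphatic list was not used as a reference. The part of lymphatic content in the *Flt4* result was not tested.

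**Figure D4:**
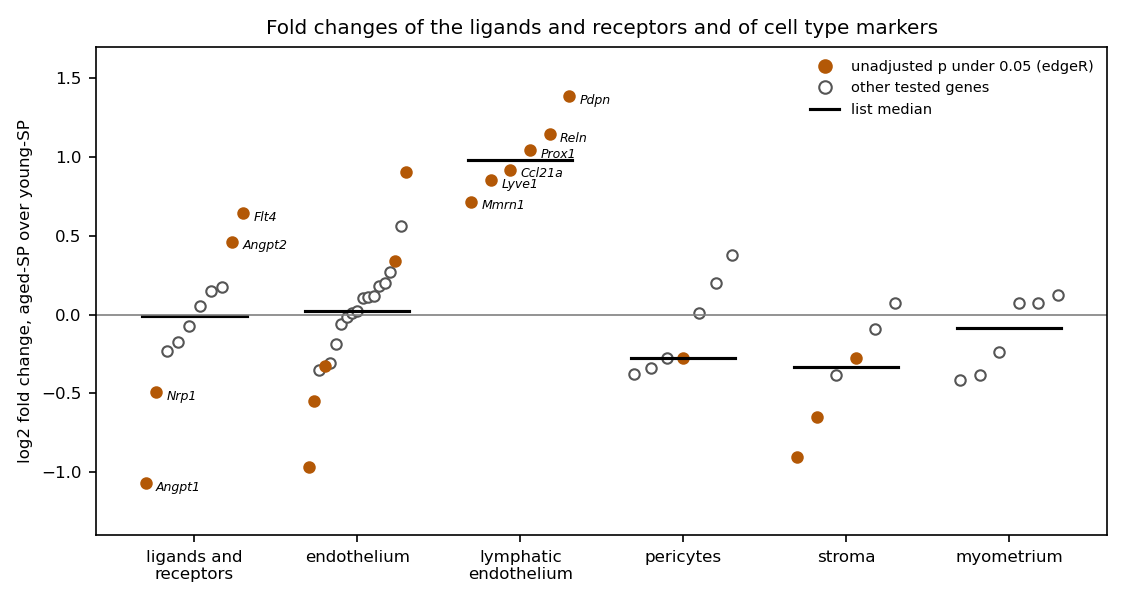
Log2 fold change (aged-SP over young-SP, edgeR) of the 10 ligands and receptors and of marker genes of 5 cell types, 1 point per tested gene, filled where the unadjusted p was under 0.05, with a line at each list's median. All 6 lymphatic markers are filled and lie between 0.72 and 1.39, while the medians of the ligands and receptors and of the 19 endothelial markers lie at -0.01 and 0.02.

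Most stromal markers lay on the same side as *Angpt1* and *Nrp1*, with 5 of 6 lower and 1 slightly higher (log2 fold change 0.07). Of 6 stromal markers 3 were lower at an unadjusted p under 0.05, as were 9.36% of all tested genes, and 0 were higher, with a median log2 fold change of -0.33 and a summed CPM of 5617 to 6811 in the aged-SP group and 7547 to 9769 in the young-SP group. *Col1a1*, a chain of type I collagen, had a log2 fold change of -0.90 (adjusted p 0.0734 with edgeR), *Pdgfra* had -0.65 and *Hand2*, a progesterone target of the stroma, had -0.28. Relative to *Pdgfra*, *Angpt1* showed a difference of -0.42 in log2 CPM with no overlap (exact permutation p = 0.2, the smallest possible), and *Nrp1* differed by 0.15 with overlapping groups (exact permutation p = 0.6). Relative to the mean of *Pdgfra* and *Col1a1*, the differences were -0.29 for *Angpt1* and 0.28 for *Nrp1*, both with no overlap. Both markers had a lower log2 fold change than the list median, *Col1a1* the lowest of the list, and *Nrp1* itself was at -0.49. These differences hold for this pair of markers only, as the whole list was not used as a reference. Without young-SP replicate 1, 4 of the 6 stromal markers were lower at an unadjusted p under 0.05 (11.1% of all tested genes), with a median of -0.46. The part of stromal content in these results was not tested. Of 7 pericyte markers 1 (*Rgs5*, -0.27) was lower and 0 were higher at an unadjusted p under 0.05. By direction alone 4 were lower and 3 higher, with a median of -0.27. Leaving out young-SP replicate 1, 3 were lower at that threshold (11.1% of all tested genes). Of 6 epithelial markers 1 (*Krt18*, 0.38) was higher, and 0 of 6 markers of myometrium, 0 of 6 of leukocytes and 0 of 4 of blood had an unadjusted p under 0.05 with edgeR. Every marker of endothelium, stroma, epithelium and myometrium had counts in all 5 libraries.

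The following lists are counted at an unadjusted p under 0.05 with edgeR, to be read against the 19.0% of all tested genes that had it. Among the other ligands and receptors of the 2 families it was 1 of 5. This was *Vegfb*, a ligand of VEGFR1, with CPM values of 29.6 and 32.4 in the aged-SP group and 20.1, 25.6 and 25.0 in the young-SP group, a log2 fold change of 0.39 and an adjusted p of 0.240 with edgeR. *Vegfd*, a second ligand of VEGFR3, was at -0.15, *Pgf*, a ligand of VEGFR1, at -0.37 and *Angpt4* at -0.49. *Tie1*, the partner of TIE2, was at 0.21, and the groups overlapped for all of these genes. Without young-SP replicate 1, *Vegfb* was at 0.28 with an unadjusted p of 0.0717 and *Pgf* at -0.60 with 0.0482 (edgeR). The list then had 1 lower gene (11.1% of all tested genes) and 0 higher genes (11.6%). *Vegfd* spread widely within the groups, with 24.8 and 46.3 CPM in the aged-SP group and 30.5, 33.3 and 54.6 in the young-SP group.

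Of 12 semaphorins and plexins, the other partners of the neuropilins, 2 were higher and 1 was lower at an unadjusted p under 0.05. *Sema3f*, a repulsive ligand of NRP2, had 59.4 and 64.3 CPM in the aged-SP group and 40.3, 33.4 and 27.3 in the young-SP group (log2 fold change 0.88, adjusted p 0.0986 with edgeR). *Plxna4* was at 0.68 and *Plxna3* at -0.62, both signaling receptors that pair with neuropilins. DESeq2 gave these 3 genes an adjusted p from 0.0015 to 0.00837.

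Of 14 modulators of the ligands and receptors, 1 was higher and 2 were lower. In the fit without young-SP replicate 1 there were 0 higher and 3 lower, against 11.6% higher and 11.1% lower of all tested genes. *Col18a1*, whose collagen carries the endostatin fragment, had 184 and 232 CPM in the aged-SP group and 364, 516 and 592 in the young-SP group (log2 fold change -1.24, adjusted p 0.0957 with edgeR and 4.97e-05 with DESeq2). *Svep1*, an extracellular protein that binds TIE1, was at -0.57, and the integrin subunit *Itgav* was at 0.65, with 203 CPM in aged-SP replicate 1 and 116 in aged-SP replicate 4. Of 13 genes of the hypoxia and steroid inputs to *Vegfa*, 2 were higher (*Bnip3*, 0.67, and the estrogen receptor *Esr1*, 0.28), and 3 were lower. The lower ones included *Pdk1*, a kinase that restrains pyruvate oxidation (-1.01, adjusted p 0.0734 with edgeR), and *Egln1*, an oxygen sensor that marks HIF for breakdown (-0.39). The HIF targets *Bnip3* and *Pdk1* thus lay on opposite sides.

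Of 14 genes of tip cells and of the endothelial response to VEGF, 2 were higher and 1 was lower. *Apln*, the ligand of the apelin receptor and a tip cell gene, had 1.15 and 0.831 CPM in the aged-SP group and 4.38, 5.38 and 4.41 in the young-SP group. Its log2 fold change was -2.24, with an adjusted p of 0.0708 with edgeR and 1.16e-05 with DESeq2. *Hlx* was at 0.86 and the chemokine receptor *Cxcr4* at 0.53. Of 8 other angiogenic receptors 3 were higher and 0 were lower, namely *Fgfr1* (0.46), the hepatocyte growth factor receptor *Met* (1.15) and the pericyte and stromal receptor *Pdgfrb* (0.34). *Met* had 135 CPM in aged-SP replicate 1 and 75.7 in aged-SP replicate 4, against 36.6 to 65.5 in the young-SP group. With edgeR, 0 genes of any of these lists had an adjusted p under 0.05.

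The genes whose centred log2 CPM over the 5 libraries came nearest to *Nrp1* were *P3h4*, *Iqcc* and *B9d1*, with root mean square differences of 0.0281, 0.0318 and 0.0321. Nearest to *Angpt1* were *Zap70* (0.0598) and *Gm12115* (0.0848), the latter under 1 CPM in every library. Nearest to *Angpt2* were *Gm26792* (0.0288), *Ajap1* (0.0391) and *Rragb* (0.0399). A flat profile would differ by 0.246 from *Nrp1*, 0.541 from *Angpt1* and 0.255 from *Angpt2*. These likenesses rest on 5 libraries and on 17013 candidates.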

How the data were processed

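RNA of whole uteri of ICR females was analysed in 5 libraries, and the groups were taken from the sample labels. Reads were filtered, aligned with HISAT2 and counted per gene by the authors, and the submitters' processing notes name HISAT2 2.1.0, HTSeq 0.6.0 and Bowtie2 2.2.3. The genome build is not given in the sources used here, and the positions of 27022 of 28666 genes are those of GENCODE M21 on GRCm38. The values analysed are the raw counts per gene deposited by the authors. The authors also deposited FPKM, which served for levels and ratios (pseudocount 0.01). The gene length implied by FPKM, counts and library total was checked to be the same in all libraries. For the 10 members this length equals that of their joined exons in GENCODE M21. The authors' own columns of DESeq2 fold change, p-value and adjusted p were not used, and 0 columns of values per sample were left over. A further young-SP library that the study left out as an outlier was not analysed here.

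Counts were tested with edgeR 4.0.16 in R 4.3.3 (filterByExpr, TMM, glmQLFit and glmQLFTest, all 5 libraries, two-sided), with Benjamini-Hochberg adjustment over 17013 genes. TMM factors lay between 0.990 and 1.02, and the biological coefficient of variation was 25.1%. A gene was called when its adjusted p was under 0.05 and its fold change passed 1 on the log2 scale in either direction. DESeq2 1.42.0 and limma 3.58.1 were alternatives, and Python 3.11.15 served for the rest (matplotlib 3.10.9, scipy 1.17.1, pandas 2.3.3, numpy 2.4.6). The test was checked on simulated data. The 10 genes and the lists were chosen with earlier results of these data known. Named genes were the 10 members, *Pecam1*, *Cdh5*, *Tie1*, *Vegfb*, *Vegfd*, *Pgf* and *Angpt4*, up to 4 genes of each list by p among those with an unadjusted p under 0.05 and no overlap, and for the 3 members with the smallest p the 3 genes nearest over the 5 libraries. One gene that this rule names is not reported here. *Ca9* and *Hba-a2* have no row, and *Ccl21a* and *Itgam* have 2 rows of which 1 was tested, so reads of near-identical copies are uncertain. The comparisons of *Flt4* with lymphatic markers and of *Angpt1* and *Nrp1* with stromal markers, and the lists without young-SP replicate 1, were chosen after seeing the data.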

Additional observations from a re-analysis of the deposited data

How the results depend on the processing

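The log2 fold changes of *Nrp1*, *Angpt1*, *Angpt2*, *Flt4* and *Vegfa* kept their direction in 13 of 13 alternative fits. The count of members called was 0 with edgeR under each alternative run with it, and 1 (*Angpt1*) with DESeq2, also without young-SP replicate 1. The count of members with an unadjusted p under 0.05 was 4, and leaving out 1 library at a time it ranged from 2 to 4 (2 without aged-SP replicate 1, without aged-SP replicate 4 or without young-SP replicate 4). Over all genes 25 were called, against 632 with DESeq2, 203 with no filter on low counts, 1002 with DESeq2 without young-SP replicate 1, and 1 to 578 with 1 library left out (1 without aged-SP replicate 1 and 578 without young-SP replicate 1). Where 1 aged-SP library was left, it was assumed to vary like the young-SP libraries.

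Samples of the 2 groups share replicate numbers, and the labels do not say what a number marks. Correlations of the deviations from the group means were 0.152 and 0.136 over the 2 same-numbered pairs, and from -0.152 to 0.0757 over the others. With 2 aged-SP libraries the deviations of 1 mirror those of the other, so these values cannot decide on a pairing. With the replicate number as a block 2 genes were called, 0 of them members, and *Vegfc* (0.052), *Tek* (0.064) and *Kdr* (0.24) reversed. With 1 library left out the log2 fold change ranged from -0.014 to 0.28 for *Nrp2*, from -0.45 to 0.031 for *Vegfc*, from -0.37 to 0.053 for *Tek*, from -0.096 to 0.19 for *Flt1* and from -0.31 to 0.22 for *Kdr*, and DESeq2 without young-SP replicate 1 gave -0.0075 for *Nrp2* and -0.087 for *Flt1*. The difference in log2 ratio ranged from -0.088 to 0.20 for *Flt1* over *Kdr* and from -0.085 to 0.49 for *Vegfa* over *Kdr*. *Flt1* relative to *Pecam1* and *Cdh5* ranged from -0.20 to 0.17, and against the whole endothelium list it was 0.038. The cause of these changes was not tested. With 2 against 3 libraries and 76 to 229 counts for *Vegfc* and *Angpt1*, small differences could not be resolved, and no exact test could reach 0.05.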
